A study of Homo sapiens with 6 samples.

Results

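The 10 genes described here encode the enzymes that make serine, pass its carbon into the folate cycle and make asparagine, and they were chosen by symbol from the 22925 genes of the deposited table, where all 10 were found. They are PHGDH, PSAT1 and PSPH of serine synthesis, SHMT1, SHMT2, MTHFD1, MTHFD1L, MTHFD2 and ALDH1L2 of folate one-carbon metabolism, and ASNS, asparagine synthetase. Poly(A) RNA was sequenced from HT-1080, an established human fibrosarcoma cell line, in 3 libraries from cells given 20 μM PhenDC3 in 1% DMSO for 48 h and 3 libraries from cells given 1% DMSO alone for 48 h. PhenDC3 is a synthetic ligand of G quadruplexes, stacked structures that guanine-rich DNA or RNA can fold into. The comparison asks how the ligand alters transcript levels, and it rests on a single cell line, with solvent in both groups. Nothing in the labels says that the libraries of a group came from separate cultures, so p-values speak of library-to-library spread alone, and that spread may be technical.

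Serine is built from an intermediate of glycolysis in 3 steps. PHGDH oxidizes phosphoglycerate, PSAT1 adds an amino group taken from glutamate, and PSPH removes the phosphate. The SHMT enzymes then split serine into glycine and a one-carbon unit carried on folate, which cells use to make purines, thymidylate and methionine. In proliferating cells most of these units are made in mitochondria by SHMT2 and MTHFD2, released as formate by MTHFD1L and taken up again in the cytosol by MTHFD1. ASNS makes asparagine from aspartate, with glutamine as the nitrogen donor. Many of these genes, ASNS, PHGDH, PSAT1, SHMT2 and MTHFD2 among them, are known targets of ATF4, the transcription factor of the amino acid and endoplasmic reticulum stress responses.

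The upstream sequence of 4 of the genes is shown because ASNS, PHGDH and PSAT1 had the largest falls and because ASNS and MTHFD1L hold a match to an ATF4 motif. RefSeq promoter windows on GRCh38.p14, each of 250 bases before and 50 after a start site, matched 7 of the 10 genes. Those not matched were PSPH, SHMT2 and ALDH1L2. The 250 bases before a start are printed 5′ to 3′ on the strand of the gene. They lie at chr7:97872409-97872658 on the minus strand for ASNS, chr6:150866236-150866485 on the plus strand for MTHFD1L, chr1:119711684-119711933 on the plus strand for PHGDH and chr9:78296875-78297124 on the plus strand for PSAT1. Capitals mark matches to TGATGNAAN, TTGCATCA or CACGTG on either strand.
ASNS: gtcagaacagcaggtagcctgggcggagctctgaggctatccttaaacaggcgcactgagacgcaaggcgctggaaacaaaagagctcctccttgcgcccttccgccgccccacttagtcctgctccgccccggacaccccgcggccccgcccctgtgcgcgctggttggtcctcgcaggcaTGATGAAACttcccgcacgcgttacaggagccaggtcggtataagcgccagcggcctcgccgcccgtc
MTHFD1L: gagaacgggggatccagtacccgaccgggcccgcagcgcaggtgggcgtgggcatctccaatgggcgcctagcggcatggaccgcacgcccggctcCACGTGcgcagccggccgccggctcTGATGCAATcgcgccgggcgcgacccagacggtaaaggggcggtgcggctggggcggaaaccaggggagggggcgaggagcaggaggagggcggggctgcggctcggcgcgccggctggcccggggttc
PHGDH: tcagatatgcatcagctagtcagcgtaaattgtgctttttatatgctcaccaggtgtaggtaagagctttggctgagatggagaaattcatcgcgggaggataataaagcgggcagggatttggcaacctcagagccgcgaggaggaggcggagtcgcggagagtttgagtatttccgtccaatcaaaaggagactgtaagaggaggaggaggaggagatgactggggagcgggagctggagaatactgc
PSAT1: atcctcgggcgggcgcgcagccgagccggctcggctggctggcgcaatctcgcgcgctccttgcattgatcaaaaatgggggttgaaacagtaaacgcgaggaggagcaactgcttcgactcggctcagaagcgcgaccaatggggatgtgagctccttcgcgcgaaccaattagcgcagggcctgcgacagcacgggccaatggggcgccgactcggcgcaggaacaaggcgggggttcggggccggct

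TGATGNAAN is the element that ATF4 binds with C/EBP partners. In the ASNS window shown it read TGATGAAAC and began 68 bases before the start. The other ASNS window, at chr7:97872116-97872415, held none of the motifs searched. In the MTHFD1L window shown it read TGATGCAAT and began 129 bases before the start. MTHFD1L has 4 windows in the table, and 3 of them overlap and hold this same match. Measured from the other starts of these overlapping windows, the match began 90 bases before and 24 bases after. Its place relative to the start thus depends on the start taken. TTGCATCA, the reverse complement of one form of that element, was matched at MTHFD1L alone among the 7 genes, at bases it shares with TGATGCAAT. Of the 27305 genes with a window, 4.45% held TGATGNAAN and 1.08% held TTGCATCA in at least 1 window, against 3.61% and 0.866% of the 35116 windows. MTHFD1L has more windows than the other 6 genes, and so more bases searched. The E-box CACGTG, which MYC and related factors bind, was matched in MTHFD1L and MTHFD1 and in 8.77% of genes, or 7.26% of windows. Runs of 4 GGG tracts separated by 1 to 7 bases, a motif for G quadruplexes, were matched in ASNS and MTHFD2, on the strand opposite to ASNS and on the strand of MTHFD2, and in 27.9% of genes. PHGDH, PSAT1 and SHMT1 held none of the 4 motifs in the windows searched. A match is a description of letters and not a measured binding site.

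The PhenDC3 libraries held 7371056 to 9386691 reads and the DMSO libraries 12574952 to 14292987, as recovered from the normalized values. Reads of the mitochondrial genome made up 15.4% to 15.5% of PhenDC3 libraries and 3.72% to 3.96% of DMSO libraries. DMSO replicate 3 stood apart from its group. Chi-square values divided by their degrees of freedom were 7.12 and 7.75 between it and the other DMSO libraries, and 1.45 to 2.68 for the other pairs within a group. All 8 mesenchymal markers were present, with summed levels of 34661 to 36040 normalized counts in PhenDC3 and 49276 to 54414 in DMSO libraries. The 3 epithelial markers measured summed to 78.7 to 86.3 and 59.3 to 72.4 normalized counts in PhenDC3 and DMSO libraries, with ESRP1 at 0 in DMSO. Most of the epithelial sum was CLDN4, with a mean of 68.5 in PhenDC3 and 66.8 in DMSO. The single blood marker measured, CD68, was at 7.87 to 19.4 and 4.64 to 7.78, and the 2 endothelial markers summed to 235 to 317 and 227 to 302. Nearly all of the endothelial sum was EGFL7, with a mean of 280 in PhenDC3 and 257 in DMSO. The other endothelial marker averaged below 5 in both groups. EPCAM, CDH1, CDH3, PTPRC, HBB, CD3E, PECAM1 and CDH5 were not analysed here. The part of depth, of the mitochondrial share and of these markers in the results was not tested, except where a value is given below.

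All 10 genes fell with PhenDC3, from 2.85-fold lower for ASNS to 1.35-fold lower for SHMT1. Each passed the test, which was limma on log2(value + 1) across 16482 genes with p-values adjusted by the Benjamini-Hochberg method and called under 0.05. In that fit 59.6% of all tested genes were called, 30.4% lower and 29.2% higher, so a fall as such was common. The 3 PhenDC3 libraries lay below the 3 DMSO libraries for all 10 genes, as they did for 32.6% of tested genes. The median log2 change of the 10 genes was -0.89, and that of all tested genes was -0.02. Log2 falls of 1 or more were found in 4 of the 10, ASNS, PHGDH, PSAT1 and ALDH1L2, against 6.46% of tested genes. RNA came from whole cultures, so fewer cells holding a transcript and less of it per cell cannot be told apart.

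**Figure D1:**
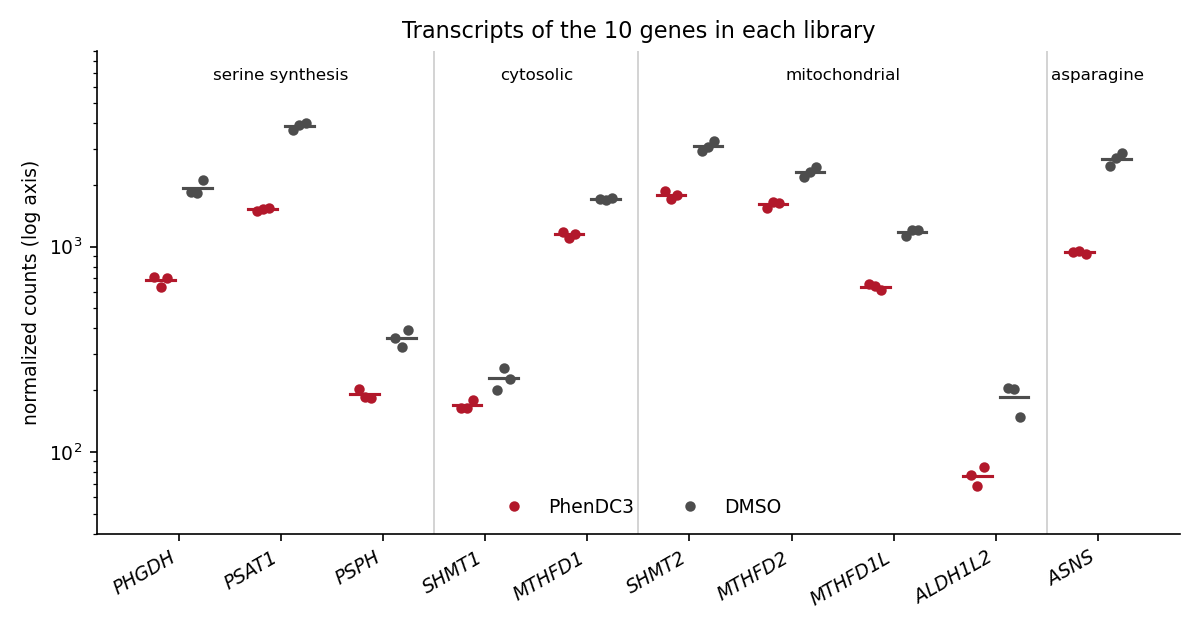
Normalized counts of each gene in each library (log axis), grouped by role, with 3 PhenDC3 libraries (red, left) and 3 DMSO libraries (grey, right) per gene and a bar at each mean. In all 10 genes the red points lie below the grey ones, and the gap is widest for ASNS, PHGDH and PSAT1.

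All 3 steps of serine synthesis fell, to 0.355, 0.392 and 0.532 of the DMSO level in the order of the pathway. PHGDH (ENSG00000092621, chromosome 1) had 709, 636 and 707 normalized counts in PhenDC3 libraries, against 1855, 1821 and 2109 in DMSO libraries. The lowest DMSO library lay 1112 counts above the highest PhenDC3 library. PHGDH averaged 684 ± 41.8 normalized counts in PhenDC3 and 1928 ± 157 in DMSO (SD, n = 3 each), or 0.355 of the DMSO level (limma, adjusted p = 1.11e-12, log2 fold change -1.49 with SE 0.07). PSAT1 (ENSG00000135069, chromosome 9), the aminotransferase, had 1495, 1520 and 1540 normalized counts in PhenDC3 libraries, against 3703, 3921 and 3999 in DMSO libraries. It fell to 0.392 of the DMSO level, with little spread in either group (limma, adjusted p = 2.17e-13, log2 fold change -1.35 with SE 0.06). PSPH (ENSG00000146733, chromosome 7), the phosphatase that releases serine, had 202, 186 and 184 normalized counts in PhenDC3 libraries, against 360, 323 and 391 in DMSO libraries. That is 0.532 of the DMSO level, from 125 to 171 reads per PhenDC3 library (limma, adjusted p = 1.14e-07, log2 fold change -0.90 with SE 0.10).

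ASNS had the lowest ratio of the 10. ASNS (ENSG00000070669, chromosome 7) had 937, 953 and 920 normalized counts in PhenDC3 libraries, against 2466, 2692 and 2856 in DMSO libraries. The DMSO values were spread over 389 counts and the PhenDC3 values over 33.0. ASNS averaged 937 ± 16.5 normalized counts in PhenDC3 and 2671 ± 195 in DMSO (SD, n = 3 each), or 0.351 of the DMSO level (limma, adjusted p = 2.12e-13, log2 fold change -1.51 with SE 0.07).

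Both cytosolic folate enzymes fell, to 0.742 and 0.674 of the DMSO level. SHMT1 (ENSG00000176974, chromosome 17), the cytosolic serine hydroxymethyltransferase, had 165, 164 and 180 normalized counts in PhenDC3 libraries, against 201, 257 and 228 in DMSO libraries. The highest PhenDC3 and lowest DMSO libraries were 21.0 counts apart, the narrowest gap of the 10 genes. SHMT1 was at 0.742 of the DMSO level (limma, adjusted p = 0.00229, log2 fold change -0.42 with SE 0.11), with its largest adjusted p = 0.0271 when DMSO replicate 2 was left out. MTHFD1 (ENSG00000100714, chromosome 14), a cytosolic enzyme with 3 activities that interconverts folate one-carbon units, had 1176, 1108 and 1153 normalized counts in PhenDC3 libraries, against 1697, 1682 and 1720 in DMSO libraries. Its groups were tight and well apart, at 0.674 of the DMSO level (limma, adjusted p = 1.56e-07, log2 fold change -0.57 with SE 0.06).

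All 4 mitochondrial enzymes fell, to between 0.413 and 0.694 of the DMSO level. SHMT2 (ENSG00000182199, chromosome 12), the mitochondrial counterpart of SHMT1, had 1868, 1715 and 1794 normalized counts in PhenDC3 libraries, against 2933, 3055 and 3254 in DMSO libraries. It fell to 0.582 of the DMSO level (limma, adjusted p = 1.78e-09, log2 fold change -0.78 with SE 0.06). MTHFD2 (ENSG00000065911, chromosome 2), the mitochondrial dehydrogenase and cyclohydrolase, had 1543, 1648 and 1631 normalized counts in PhenDC3 libraries, against 2184, 2320 and 2447 in DMSO libraries. Its 0.694 of the DMSO level was the highest ratio of the mitochondrial members (limma, adjusted p = 6.24e-07, log2 fold change -0.53 with SE 0.06).

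MTHFD1L (ENSG00000120254, chromosome 6), which releases formate inside mitochondria, had 656, 640 and 615 normalized counts in PhenDC3 libraries, against 1127, 1203 and 1198 in DMSO libraries. The groups did not overlap, and MTHFD1L was at 0.542 of the DMSO level (limma, adjusted p = 1.01e-09, log2 fold change -0.88 with SE 0.07). ALDH1L2 (ENSG00000136010, chromosome 12), a mitochondrial dehydrogenase that burns one-carbon units to CO2 and makes NADPH, had 76.9, 68.5 and 84.0 normalized counts in PhenDC3 libraries, against 204, 203 and 148 in DMSO libraries. DMSO replicate 3 was the low one of its group. ALDH1L2 was at 0.413 of the DMSO level, on 46 to 65 reads per PhenDC3 library (limma, adjusted p = 1.7e-07, log2 fold change -1.25 with SE 0.14). Without DMSO replicate 3 its log2 change was -1.41.

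**Figure D2:**
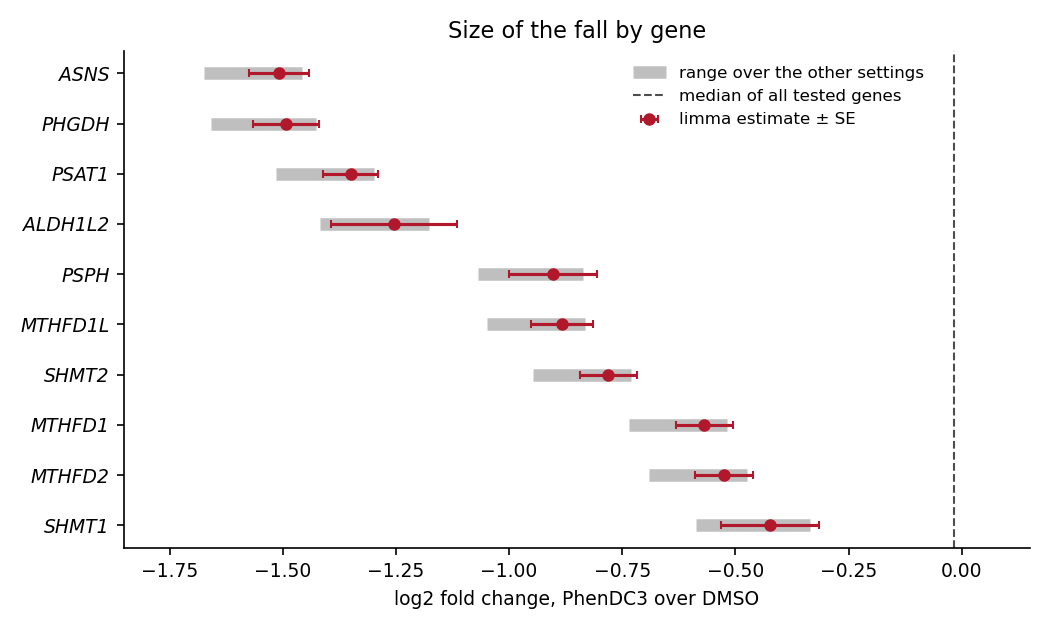
Log2 fold change of PhenDC3 over DMSO for each gene (points, with SE as whiskers), the range over the 22 other settings tried (grey bars) and the median of all tested genes (dashed line, -0.02). ASNS lies lowest at -1.51 and SHMT1 closest to the median at -0.42, and no grey bar reaches the dashed line.

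The order of the falls is a description, since the genes were ranked by the same values. Within each library the log2 ratio of each gene to its neighbour in that order was taken, and for 8 of the 9 neighbouring pairs these ratios overlapped between groups. The exception was SHMT2 to MTHFD1, at 0.63 to 0.67 in PhenDC3 libraries and 0.79 to 0.92 in DMSO libraries on the log2 scale. The ranking fixes the sign of each such difference, so no step of the order was tested.

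The mitochondrial and cytosolic arms were compared through 4 ratios, which depend little on how libraries are scaled. The printed ratios have nothing added, while 1 was added to each value for the log2 differences and the test. The choice matters most for ALDH1L2, whose log2 difference from MTHFD1 was -0.69 with 0.5 added and -0.65 with 5 added. MTHFD1 is the cytosolic side of 3 of them, so these are not independent. A ratio of counts also reflects the lengths of both transcripts, so only its difference between groups is read. The SHMT2 to SHMT1 ratio was 11.4, 10.5 and 9.98 in PhenDC3 libraries, against 14.6, 11.9 and 14.3 in DMSO libraries. It was lower in every PhenDC3 library, by 0.36 on the log2 scale. The MTHFD1L to MTHFD1 ratio was 0.557, 0.578 and 0.534 in PhenDC3 libraries, against 0.664, 0.715 and 0.697 in DMSO libraries, a log2 difference of -0.31 with no overlap. The ALDH1L2 to MTHFD1 ratio was 0.0654, 0.0618 and 0.0728 in PhenDC3 libraries, against 0.120, 0.121 and 0.0862 in DMSO libraries. Its log2 difference was -0.69, and -0.85 without DMSO replicate 3. ALDH1L1, the cytosolic relative of ALDH1L2, had a log2 change of -1.17 in limma, against -1.25 for ALDH1L2, so this difference is one from MTHFD1 and not from the matching cytosolic enzyme. The MTHFD2 to MTHFD1 ratio, at 1.31, 1.49 and 1.41 in PhenDC3 libraries and 1.29, 1.38 and 1.42 in DMSO libraries, overlapped between groups, with a log2 difference of 0.04. The exact permutation test gave p = 0.1 for the first 3 ratios, the smallest it can give, and p = 0.6 for the last. Adjusted over the 4 ratios these were 0.133 and 0.6, so none passed a threshold of 0.05 and none could have.

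**Figure D3:**
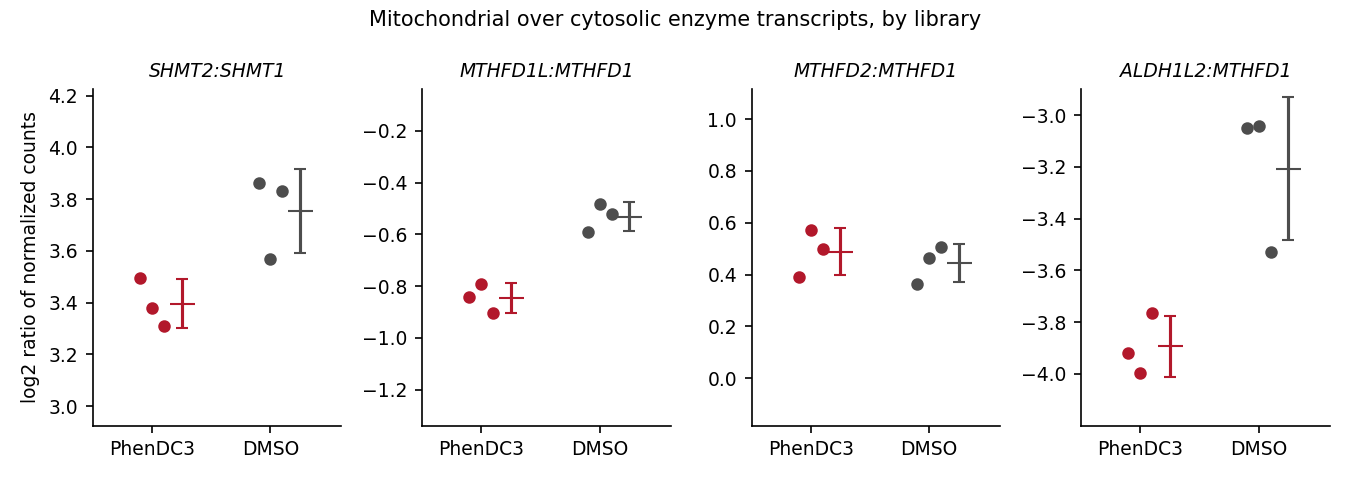
Log2 ratio of a mitochondrial to a cytosolic transcript in each of 3 PhenDC3 libraries (red, left) and 3 DMSO libraries (grey, right), with mean and SD beside the points. The axes start at different values but span the same range, and MTHFD2:MTHFD1 alone overlaps between groups.

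Per kilobase of the longest coding transcript in GENCODE 29, PSAT1 was the most abundant of the 10 in DMSO, at 1771 ± 70.1 normalized counts per kilobase (SD, n = 3). In PhenDC3 libraries SHMT2 and PSAT1 were level within their spread by this length, at 706 ± 30.1 and 694 ± 10.4 normalized counts per kilobase. Over the union of exons they were not level, with SHMT2 at 370 and PSAT1 at 694 in PhenDC3 libraries. ALDH1L2 was the least abundant in both groups, at 10.1 ± 1.03 in PhenDC3 and 24.5 ± 4.24 in DMSO. Among enzymes for the same reaction, SHMT2 stood at 706 ± 30.1 per kilobase and SHMT1 at 68.7 ± 3.66 in PhenDC3, and at 1214 ± 63.8 and 92.7 ± 11.4 in DMSO. Which transcripts the cells use was not measured. Over the union of exons the DMSO levels of PHGDH, ASNS, SHMT2 and SHMT1 were 209, 600, 637 and 31.4 per kilobase, against 746, 1134, 1214 and 92.7 by the longest coding transcript. As a share of each library's reads the 10 genes together took 787 to 801 RPM in PhenDC3 libraries and 1710 to 1862 RPM in DMSO libraries. With mitochondrial reads left out of the total, the shares were 931 to 948 RPM in PhenDC3 and 1779 to 1939 RPM in DMSO libraries.

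The falls held under the other scalings of the libraries that were tried. With total count scaling the median log2 change was -0.18 for all tested genes and -1.06 for the 10 genes. Another scaling shifts all genes nearly alike, so the distance of the 10 genes from the rest says nothing on this point. That scaling also turned the calls over all genes from 4806 higher and 5012 lower to 3579 higher and 6608 lower, the lower ones being 40.1% of tested genes. With mitochondrial genes left out of the total the median of the 10 was -0.87. With every library thinned to 7371056 reads all 10 genes were again lower, as they were without DMSO replicate 3, where log2 changes ran from -1.46 for ASNS to -0.42 for SHMT1. In the authors' deposited table all 10 were lower too, with an adjusted p = 0.0108 for SHMT1 and smaller values for the others, beside 19.3% of the genes with an adjusted p. The edgeR test on recovered reads called all 10 lower beside 32.1% of its genes, and DESeq2 did so beside 19.3%. DESeq2 here nearly repeats the deposited result, with a log2 change of -1.51 for ASNS in both, so it is no separate check.

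Some of the genes have processed copies whose reads may be hard to place. PSAT1P3, a copy of PSAT1, was at 43.0 ± 6.57 normalized counts in PhenDC3 and 100.3 ± 0.763 in DMSO (SD, n = 3 each), and MTHFD1P1 at 39.6 ± 7.16 and 71.1 ± 2.49. The other copies listed for PSAT1, MTHFD2, SHMT1 and ASNS averaged less than 50 normalized counts in either group. The sources used here do not say how reads were divided among copies or whether counting used strand. SHMT1 shares 196 exonic bases with SMCR8 on the opposite strand, which was higher in PhenDC3 (limma, log2 fold change 1.02, adjusted p = 1.52e-07). ALDH1L2 shares 145 exonic bases with C12orf45 on the opposite strand, which was lower in PhenDC3 (limma, log2 fold change -0.81, adjusted p = 0.000169). What C12orf45 reads add to the fall of ALDH1L2 was not tested. ASNS shares 1985 of its 4455 exonic bases, 44.6%, with AC079781.5 on the same strand, which was not analysed here. MTHFD2 shares 1324 exonic bases with SLC4A5 on the opposite strand, which was at 10.7 normalized counts or less in every library.

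The transcript of ATF4 was higher in PhenDC3 libraries, where these genes were lower. ATF4 averaged 3537 ± 160.0 normalized counts in PhenDC3 and 2848 ± 207 in DMSO (SD, n = 3 each) and was higher without overlap (limma, adjusted p = 0.000316, log2 fold change 0.31 with SE 0.06). With total count scaling its log2 change was 0.15, with an adjusted p = 0.0491. Of the 10 tested genes for eIF2alpha kinases, ATF4 and its partners, 7 were higher and 1 lower, with a median log2 change of 0.46. DDIT3, which encodes CHOP, was 5.85-fold higher, CEBPB, a C/EBP factor that can pair with ATF4, 4.93-fold, and ATF5, a factor related to ATF4, 2.63-fold. EIF2AK1, the heme-regulated eIF2alpha kinase, was the one that fell, to 0.620 of the DMSO level. EIF2AK3 and EIF2AK4, the kinases that sense endoplasmic reticulum stress and amino acid shortage, had log2 changes of -0.20 and -0.15 and did not pass. Both were lower without DMSO replicate 3, which made 3 lower, and with total count scaling, under which CEBPG lost its call as higher (adjusted p = 0.179). These are transcript levels, and ATF4 protein was not measured here.

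The folate genes around the 10 mostly fell. Of 13 tested, 8 were lower and 1 higher, with a median log2 change of -0.52. TYMS, which uses a one-carbon unit to make thymidylate, was at 784 ± 85.8 normalized counts in PhenDC3 and 1709 ± 132 in DMSO (limma, log2 fold change -1.13, adjusted p = 2.9e-10). GGH, which trims polyglutamate from folates, fell to 0.433 of the DMSO level. ALDH1L1, the cytosolic relative of ALDH1L2, fell to 0.445 of the DMSO level. MTHFD2L, the paralog of MTHFD2, moved the other way. It averaged 174 ± 3.3 normalized counts in PhenDC3 and 125 ± 6.73 in DMSO, or 1.39-fold higher (limma, adjusted p = 0.000894, log2 fold change 0.47 with SE 0.11). Without DMSO replicate 1 the list had 2 genes higher. FOLR1 was not analysed here.

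In the list for glycine cleavage and serine use 5 of 10 tested were lower and 0 higher in limma, with a median log2 change of -0.25. AMT and GLDC, subunits of the glycine cleavage system, fell to 0.399 and 0.464 of the DMSO level from low levels, AMT having 24.2 ± 3.91 normalized counts in PhenDC3 and 60.7 ± 7.17 in DMSO. DLD, the dehydrogenase subunit, fell to 0.802 and SRR, serine racemase, to 0.672, though SRR was not called by DESeq2 (adjusted p = 0.0721). SFXN1, a mitochondrial serine transporter, had 1611 ± 54.3 and 1539 ± 39.9 normalized counts in PhenDC3 and DMSO and did not pass. At an unadjusted p under 0.05 limma gave 1 gene of this list higher, SFXN3, which edgeR also called beside 30.9% of its genes higher (log2 fold change 0.18, adjusted p = 0.0388). In the methionine cycle and transsulfuration list 5 of 8 tested were lower and 2 higher, with a median log2 change of -0.38. MTR, methionine synthase, fell to 0.501, MTRR, which reactivates it, to 0.724 and CBS, which starts transsulfuration, to 0.619, while MAT2B, the regulatory subunit for S-adenosylmethionine synthesis, was 1.38-fold higher. BHMT was not analysed here.

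Among the enzymes of aspartate, glutamate, glutamine and proline, neighbours of ASNS, 9 of 14 tested were lower and 1 higher, with a median log2 change of -0.44. PYCR1, which finishes proline synthesis, fell to 0.431 of the DMSO level. GOT1, the cytosolic enzyme that makes aspartate, fell to 0.608 and ASL, argininosuccinate lyase, to 0.452. GLUL, glutamine synthetase, was the member that rose, at 1.30-fold. NARS, which loads asparagine onto its tRNA, had 3313 ± 118 normalized counts in PhenDC3 and 3464 ± 77.3 in DMSO and did not pass, though it was lower with total count scaling (adjusted p = 0.00198). Without DMSO replicate 3 OAT was also higher (log2 0.15). Calls in each of these lists stand beside 30.4% of all tested genes lower and 29.2% higher.

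**Figure D4:**
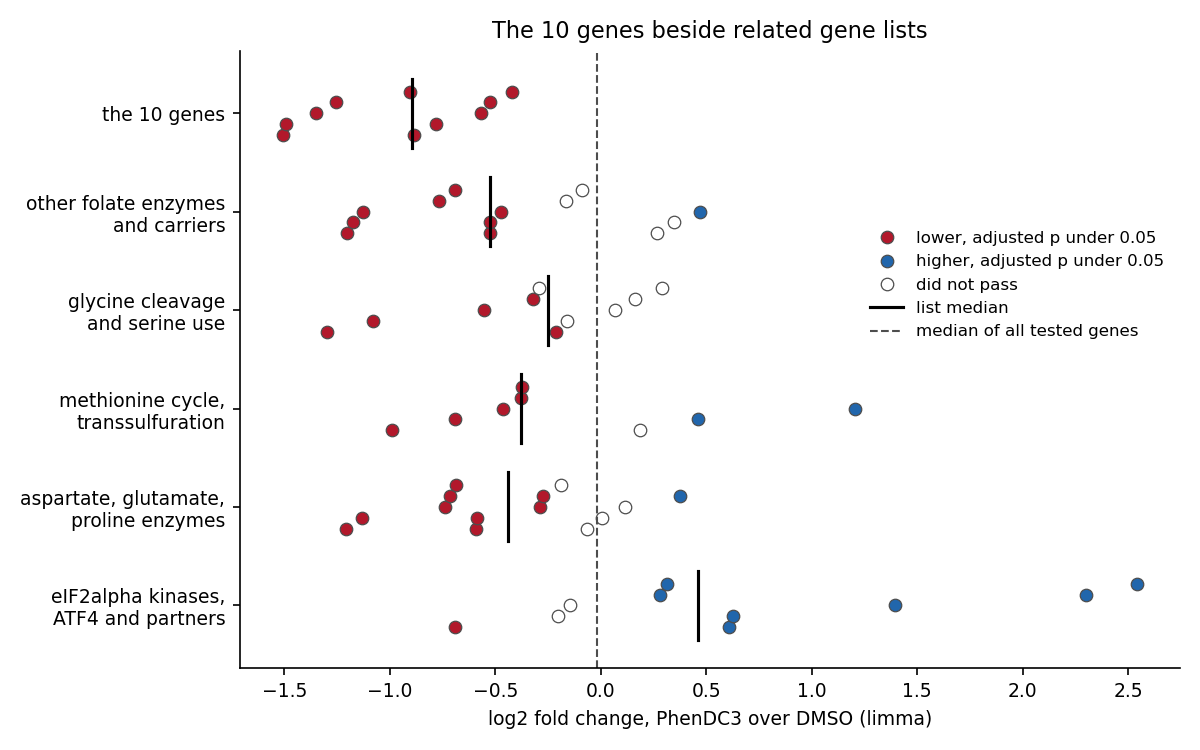
Limma log2 fold change of PhenDC3 over DMSO for every tested gene of 6 lists, filled red where lower, blue where higher and white where the test was not passed, with each list's median (black line) and the median of all tested genes (dashed line, -0.02). The 10 genes all lie at -0.42 or lower, and the list of eIF2alpha kinases, ATF4 and partners has its median at 0.46.

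MYC, which also regulates serine and one-carbon genes, was at 542 ± 29.6 normalized counts in PhenDC3 and 518 ± 34.9 in DMSO (SD, n = 3 each) and did not pass (limma, adjusted p = 0.485, log2 fold change 0.07 with SE 0.08). The 5 genes whose pattern over the 6 libraries was closest to that of ASNS were CDC45, C12orf75, LMNB1, TNNT1 and TFB1M, with a root mean square distance of 0.0578 to 0.0672 on the centred log2 scale, among 9833 genes with a mean of 100 or more. With 3 libraries against 3, this distance depends mostly on how near a gene's log2 change is to that of ASNS. That of ASNS was -1.51 in limma, and those of the 5 genes lay between -1.39 and -1.57. The order thus largely restates the size of the fall, and shared regulation was not tested. CDC45 acts at replication origins, LMNB1 encodes lamin B1 and TFB1M is a mitochondrial rRNA methyltransferase. PHGDH and PSAT1 were 15th and 18th in that order, and the next member, ALDH1L2, was 453rd.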

How the data were processed

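Gene-level values of 6 libraries were taken from a table the authors deposited. Its signal columns are gene-wise reads scaled by the authors with 1 size factor for each library, since dividing by each library's smallest value above 0 gave whole reads for 100% of values (relative tolerance 1e-06). The deposited log2 fold change and adjusted p-value are the authors' DESeq2 results, missing a p for 1332 genes. The submitters' processing notes name, without roles, the build hg19, featureCounts, STAR 2.7, TopHat2 2.0.11, CASAVA, DESeq2 1.18.1, Cuffdiff and Cufflinks 2.2.1; libraries used a stranded mRNA kit, per the labels' protocols.

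Limma 3.58.1 in R 4.3.3 was fitted to log2(value + 1), with a variance trend, for 16482 genes with a mean of 5 or more, which all 10 genes passed. Adding 1 shrinks the fold changes of weakly expressed genes. edgeR 4.0.16 and DESeq2 1.42.0 were run on the recovered reads. Of those, edgeR tested 14984 genes and called 9437. The fits were also run on simulated counts, with known changes in a small part of the genes, as many up as down. In the real data 59.6% of tested genes were called, so that run cannot vouch for the scaling or the calls here. GENCODE 29, on GRCh38, gave lengths and overlaps, and RefSeq the promoters. Coordinates of other builds were not mixed with the table, which holds none. The table gave a symbol to 15630 genes, and reference tables raised this to 22142.

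The 10 genes, the 5 other lists and the tests were chosen with earlier results of these data known. Named from each list were up to 4 called genes with the smallest adjusted p, plus genes fixed by name (MTHFD2L, ALDH1L1, ATF4, TYMS and MYC) and the 5 genes nearest to the member with the smallest adjusted p. GLUL, GNMT, SDS, SFXN1, SFXN3, NARS, CEBPG, OAT, EIF2AK3, EIF2AK4, SMCR8, C12orf45, SLC4A5 and the copies were named after their values were seen. A few genes covered by this rule are not reported here. Same-numbered libraries had residual correlations of 0.0079, 0.071 and 0.027, so the numbers were not taken to pair them. Reads per library are given with the results. Tables and figures were made in Python 3.11.15 with pandas 2.3.3, matplotlib 3.10.9 and scipy 1.17.1.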

Additional observations from a re-analysis of the deposited data

How the results depend on the processing

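The calls for the 10 genes kept their side of the threshold and their direction in all 220 values, 22 settings for each gene. Among the settings were a stricter threshold of 0.01, the authors' deposited table, and DESeq2, which gave nearly the same values as that table. A fold minimum and thinning of reads were added once the data had been seen. Adding a minimum log2 change of 1 left 4 of the 10 genes, all lower, and 2692 genes in all, 1627 higher and 1065 lower, by its own construction. Leaving out 1 library gave 8965 to 9564 genes in all, with 4381 to 4702 higher and 4517 to 4862 lower. With the replicate number as a block (replicate block) 10155 genes were called and all 10 genes stayed lower. In that fit SFXN3 was called, which made 1 higher in its list, and no other count of a list moved by over 1.5 times. Not every same-numbered pair correlated best with its own number.

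Among the lists, glycine cleavage and serine use had 1 higher gene with edgeR, with edgeR without a filter (there SDS) and with total count scaling without mitochondrial genes, and 3 lower with DESeq2. The methionine list had 1 higher with DESeq2, where GNMT was not called. The eIF2alpha and ATF4 list had 2 lower with edgeR without a filter and 3 with total count scaling. With TMM scaling EIF2AK4 was also called lower, and with upper quartile scaling SFXN3 and OAT were called higher. Leaving out 1 library gave 1 to 2 higher for the other folate genes, 1 to 2 higher for the aspartate and proline enzymes and 1 to 3 lower for the eIF2alpha and ATF4 list. SRR, a gene of the naming rule, lost its call with DESeq2 and in the authors' deposited table. Genes near the threshold also changed call, among them NARS, EIF2AK3, EIF2AK4 and CEBPG with total count scaling, OAT without DMSO replicate 3, and GNMT with DESeq2.

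Depth limits ALDH1L2 and SHMT1 most, with as few as 46 and 110 reads in a library. The ratios cannot pass 0.05 with 3 libraries a group. The protein comparison planned for paralogs was not run, as no protein sequences were used here.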
